A study of Mus musculus with 6 samples.

Results

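The adipokine genes described here are 9 genes fixed by name in the gene count table, namely Adipoq, Retn, Lep, Cfd, Rbp4, Nampt, Apln, Itln1 and Rarres2, out of 45706 genes in that table. Each was read in 6 libraries of 3T3-L1 cells, a mouse embryo fibroblast line that turns into fat-storing adipocytes when given a hormone cocktail. All 6 cultures were treated with IBMX, insulin, dexamethasone and rosiglitazone and were collected on day 7 of differentiation. The scrambled control group (3 libraries) carried a non-targeting shRNA, and the RBMS1 knockdown group (3 libraries) carried an shRNA against Rbms1, which encodes an RNA-binding protein. In either group the shRNA came from a lentivirus, and the knockdown cells were a puromycin-selected stable population of this single line, so animals and adipose tissue are not represented. The comparison asks how the transcripts of secreted adipocyte hormones differ between adipocytes with and without Rbms1 silencing.

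Adipokines are proteins that adipose tissue releases into the blood or its surroundings. Adiponectin (Adipoq) and adipsin (Cfd) are products of mature adipocytes, leptin (Lep) signals fat stores to the brain, and resistin (Retn) is an adipocyte hormone in mice that has been linked to insulin resistance. Retinol-binding protein 4 (Rbp4), apelin (Apln), chemerin (Rarres2), omentin (Itln1) and the NAD-forming enzyme NAMPT, also named visfatin, complete the set, and their main sources in the body include liver, endothelium and gut as well as fat. Many of these genes are switched on late in adipocyte differentiation by the transcription factors PPARγ and C/EBPα.

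Retn was the only adipokine gene called lower in RBMS1 knockdown adipocytes. It averaged 79.0 ± 47.4 CPM (SD, n = 3) there against 252 ± 54.6 (SD, n = 3) in the controls, which is 3.18-fold lower. This call was close to the threshold (adjusted p = 0.0967 by edgeR). It was lost in 11 of 18 alternatives, among them 5 of the 6 that leave out a library and edgeR's earlier estimates (adjusted p = 0.105). CPM are estimated counts scaled to a common library total with TMM factors. Transcripts of Adipoq, Cfd, Nampt, Apln and Rarres2 were plentiful and did not pass the test between the groups (2 of the 6 tested genes, Retn and Rarres2, had an unadjusted p under 0.05, as did 12.4% of all tested genes), while Lep and Itln1 were at the limit of detection and Rbp4 had no count in any library. Of the 6 adipokine genes abundant enough to be tested by edgeR, 1 was called lower and 0 higher at an adjusted p of 0.1 or less, beside 0.909% of the 11440 tested genes that were called lower and 1.22% called in either direction. Their median log2 fold change was -0.33, beside 0.0044 for all genes tested. In bulk RNA, fewer adipocytes and less transcript per adipocyte cannot be told apart.

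The promoters of 4 members are printed first because the data separate them. Retn was called lower, Adipoq and Cfd were the most abundant members and were not called, and Lep was nearly absent from the same cells. Each is a window of the RefSeq annotation of GRCm38.p6 from 250 bases before to 50 bases after the start of the gene, on the plus strand. Capitals mark any match, on either strand, to the TATA element TATAAA, a C/EBP-type sequence TTGCNNAA, the nuclear receptor element AGGTCA, the CCAAT element or the GC box GGGCGG. Retn lies at chr8:3655520-3655819, Adipoq at chr16:23146286-23146585, Cfd at chr10:79890603-79890902 and Lep at chr6:29059971-29060270.
Retn: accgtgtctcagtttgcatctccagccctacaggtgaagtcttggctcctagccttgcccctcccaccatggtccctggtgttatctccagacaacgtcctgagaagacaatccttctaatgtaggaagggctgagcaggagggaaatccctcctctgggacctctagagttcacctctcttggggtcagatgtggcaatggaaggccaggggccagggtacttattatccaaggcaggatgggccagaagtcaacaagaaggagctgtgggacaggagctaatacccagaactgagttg
Adipoq: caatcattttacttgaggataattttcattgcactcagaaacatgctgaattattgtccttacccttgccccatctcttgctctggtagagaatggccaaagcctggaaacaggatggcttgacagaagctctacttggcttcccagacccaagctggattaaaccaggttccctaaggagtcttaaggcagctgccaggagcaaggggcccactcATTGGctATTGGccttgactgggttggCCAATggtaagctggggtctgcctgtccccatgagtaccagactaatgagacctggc
Cfd: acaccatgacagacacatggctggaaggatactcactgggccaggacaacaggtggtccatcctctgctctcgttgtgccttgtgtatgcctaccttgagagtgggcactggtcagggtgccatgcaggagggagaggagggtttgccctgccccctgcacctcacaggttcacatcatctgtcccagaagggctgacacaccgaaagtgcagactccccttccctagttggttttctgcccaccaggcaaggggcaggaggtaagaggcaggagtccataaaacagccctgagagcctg
Lep: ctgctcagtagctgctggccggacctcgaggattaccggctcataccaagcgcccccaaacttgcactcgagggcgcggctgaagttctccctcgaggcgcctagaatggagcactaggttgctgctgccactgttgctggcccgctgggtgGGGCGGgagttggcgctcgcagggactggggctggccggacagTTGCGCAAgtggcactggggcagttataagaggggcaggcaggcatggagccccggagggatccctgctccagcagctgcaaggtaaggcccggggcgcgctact

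None of these 5 sequences was present in the Retn or Cfd window. The Adipoq window held 3 CCAAT matches, which begin 34, 27 and 7 bases before the start site, where 37.4% of 32851 promoters of this length hold at least 1. Lep had the palindrome TTGCGCAA starting 55 bases before its start site, a form of the C/EBP-type sequence that 10.8% of promoters hold, and a GC box, found in 35.7%. Nampt had 5 GC boxes, 1 AGGTCA match (16.3% of promoters) and the highest GC content among the 8 members with a promoter in the RefSeq table, at 76.3% beside a median of 52.7% over all promoters. Promoter letters are a description of the window and were not measured in these cells.

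Library totals ran from 3142695 to 11073098 counts. Scrambled control replicate 2 was the shallowest, with 43.1% of its counts on genes derived from ribosomal RNA, against 8.13% to 17.8% in the other libraries. Rbms1 itself had 113, 102 and 99.6 CPM in the controls and 49.2, 61.4 and 84.0 CPM in knockdown replicates 1, 2 and 3. Each knockdown library was below each control, but the difference did not pass the test (log2 fold change -0.69, standard error 0.20, adjusted p = 0.185 by edgeR's quasi-likelihood test). Without knockdown replicate 3 it was called, at -0.92 with an adjusted p of 0.0708 by edgeR, and without knockdown replicate 1 it was not, at -0.52 with an adjusted p of 0.155. The cells carried adipocyte transcripts as labelled: 15 of 15 adipocyte markers were tested, and their summed level was 26540, 27918 and 29003 CPM in the controls and 24056, 14020 and 15377 CPM in the knockdown libraries. The 15 preadipocyte and fibroblast markers summed to 15434, 13247 and 13215 CPM in the controls and to 8502, 17547 and 17497 CPM in knockdown replicates 1, 2 and 3. Knockdown replicate 1 therefore stood apart from the other two on both sums, and the calls of the members and lists are given with and without it. Macrophage markers summed to between 3.05 and 10.2 CPM, with Adgre1, Ptprc, Mrc1 and Tyrobp at 0 in every library. Endothelial markers summed to between 0.172 and 2.40 CPM, with Kdr, Tie1 and Cldn5 at 0. Mesothelial markers summed to 1.12, 1.49 and 1.55 CPM in the controls and to 3.59, 5.84 and 5.65 CPM in the knockdown libraries, without overlap. Of these, Msln, which encodes mesothelin, had a log2 fold change of 2.57 with an adjusted p of 0.147 by edgeR and 0.0704 by DESeq2, and the part of these low levels in the adipokine values was not tested.

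**Figure D1:**
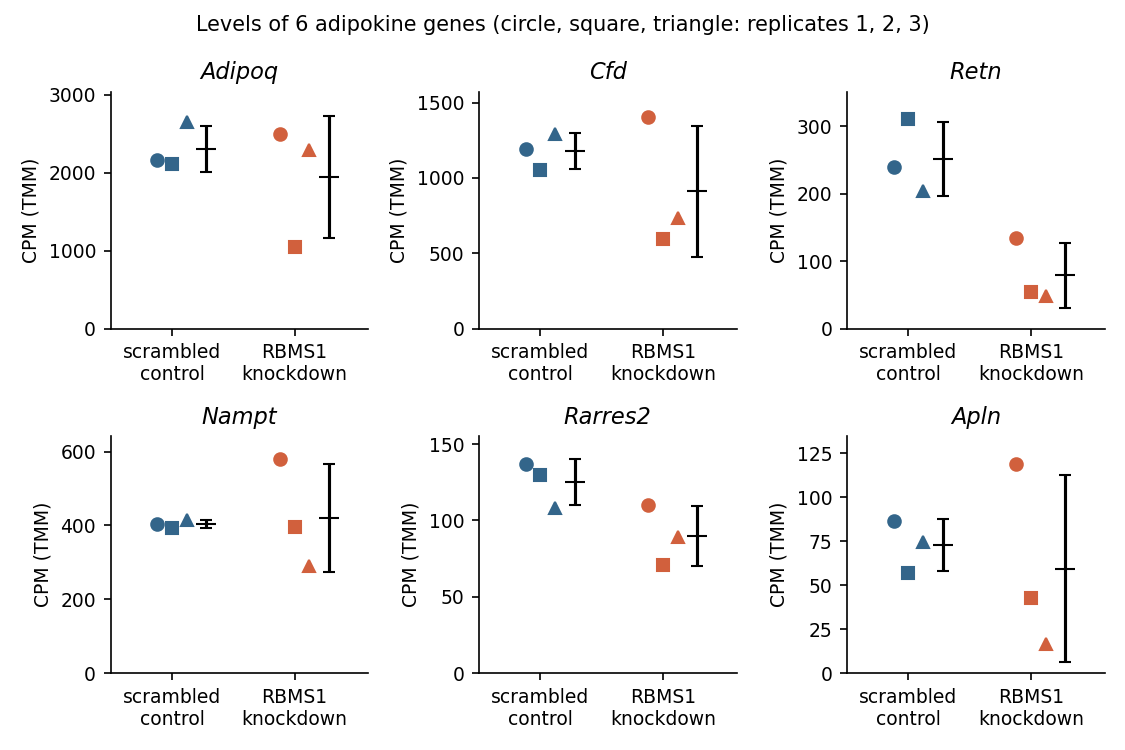
Level of 6 adipokine genes in each library, in TMM-scaled CPM on linear axes from 0. Points are libraries (circle, square and triangle for replicates 1, 2 and 3) and the bars give the mean and SD of 3 libraries. Retn is the member whose 3 knockdown libraries, at 134, 54.7 and 48.7, all lie below the 3 controls, at 240, 311 and 204.

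Retn (ENSMUSG00000012705, chromosome 8 from 3655770 to 3660110 of GRCm38) encodes resistin. Its level was 240, 311 and 204 CPM in scrambled control replicates 1, 2 and 3 and 134, 54.7 and 48.7 CPM in RBMS1 knockdown replicates 1, 2 and 3. The counts behind these values were 1497, 627 and 1185 in the controls and 930, 468 and 664 in the knockdown libraries. The groups did not overlap, and the highest knockdown library, replicate 1, was below the lowest control. Such a complete separation downwards was seen in 9.55% of all tested genes. The smallest p of an exact permutation test is 0.1 at this group size, so the calls come from the model over all genes. Its log2 fold change was -1.67 (standard error 0.36, 95% interval -2.49 to -0.86), and the Benjamini-Hochberg adjusted p from the edgeR quasi-likelihood fit was 0.0967.

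The call of Retn was close to the threshold. Over 18 alternatives the log2 fold change stayed between -2.27 and -1.26, and the gene was called in 7 of them. DESeq2, the tool named in the study's methods, gave -1.65 with an adjusted p of 0.000207, in a test that called 2.12% of its genes lower. In the other direction, edgeR's earlier quasi-likelihood estimates gave an adjusted p of 0.105 and its robust estimates 0.146. The newer estimates behind the call were chosen because they matched counts of calls already known for these data. The side of the threshold on which Retn fell therefore depends on that choice. Without scrambled control replicates 1, 2 and 3 in turn, the adjusted p was 0.224, 0.358 and 0.238 by the same edgeR test. It was 0.288 without RBMS1 knockdown replicate 2, 0.123 without replicate 3 and 0.00106 without replicate 1, over a range of 0.000207 to 0.358 across all alternatives.

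Retn is the only member on chromosome 8, where transcripts were low as a whole in the knockdown libraries. Over the 624 tested genes of that chromosome the median log2 fold change was -0.39, with 90.1% of them below 0. Genes elsewhere had a median of 0.021, with 47.3% below 0. Other chromosomes were shifted upwards. The median was 0.25 on chromosome 1, which holds Itln1 (21.6% below 0), and 0.19 on chromosome 6, which holds Lep and Rarres2 (29.5% below 0). Within 1000 kb of Retn, 18 of 23 tested genes were below 0, their median was -0.27, and 1 of them, Camsap3, was called (log2 fold change -1.95, adjusted p = 0.0619 by the same edgeR test). Retn ranked 14th from the bottom among the 624 genes. Of these, 25 were called, all of them lower, beside 104 lower calls over all 11440 tested genes. With each library's median per chromosome removed, the log2 fold change of Retn was -1.28 and its adjusted p 0.219 by edgeR, so it was then not called. Rarres2 moved away from 0 instead, to -0.65 (adjusted p = 0.267 by the same edgeR test), and was not called either. Whether the lower level of Retn goes with the chromosome or with the gene was not tested.

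Ratios of counts within a library do not depend on library scaling, and they placed Retn lower as well. For every 100 Adipoq counts there were 11.1, 14.8 and 7.70 Retn counts in the controls and 5.36, 5.18 and 2.12 in the knockdown libraries. For every 100 Nampt counts there were 59.2, 79.1 and 49.1 Retn counts in the controls and 23.1, 13.8 and 16.8 in the knockdown libraries. Neither pair of groups overlapped. Against the adipocyte markers, Retn stood at 9.04, 11.1 and 7.03 CPM for every 1000 CPM of the summed list in the controls and at 5.56, 3.90 and 3.17 in the knockdown libraries. When Lpl and Acsl1, the 2 markers on chromosome 8, were left out of that sum, the values were 23.1, 25.8 and 19.4 in the controls and 12.6, 7.76 and 6.05 in the knockdown libraries, again without overlap.

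**Figure D2:**
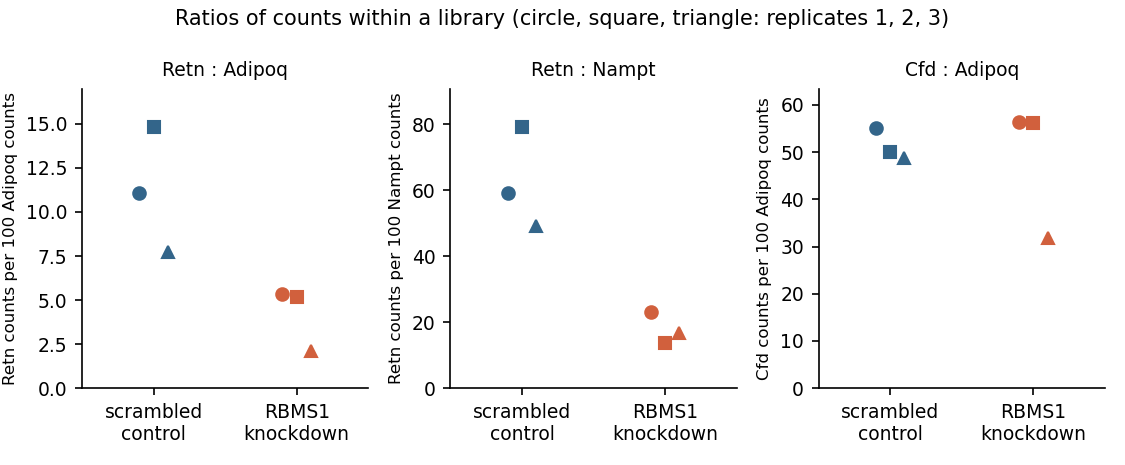
Counts of Retn per 100 counts of Adipoq, of Retn per 100 counts of Nampt and of Cfd per 100 counts of Adipoq, by library, on linear axes from 0. Retn is lower against either gene in all 3 knockdown libraries, while the Cfd to Adipoq ratio is 56.4 and 56.2 in knockdown replicates 1 and 2 and 31.9 in replicate 3, beside 48.8 to 55.2 in the controls.

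Adipoq (ENSMUSG00000022878, chromosome 16 from 23146536 to 23158028) encodes adiponectin, which raises insulin sensitivity and is widely used as a marker of mature adipocytes. Its level was 2162, 2109 and 2649 CPM in the controls and 2493, 1056 and 2296 CPM in the knockdown libraries. Knockdown replicate 2 was the low library, and the other two lay within the range of the controls. The log2 fold change of -0.24 (standard error 0.33, 95% interval -0.98 to 0.49) did not pass the test (adjusted p = 0.815 by edgeR's quasi-likelihood test). It turned to 0.068 without knockdown replicate 2 and to 0.14 with library sizes alone, a scaling that raises the median of all genes to 0.37. The interval leaves room for a change of almost 1 log2 unit downwards, so a moderate difference in Adipoq was not detectable with these libraries.

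Cfd (ENSMUSG00000061780, chromosome 10 from 79890853 to 79892655) encodes adipsin, the serine protease that cleaves factor B in the alternative complement pathway. It was at 1193, 1054 and 1294 CPM in the controls and at 1407, 593 and 733 CPM in the knockdown libraries. Knockdown replicate 1 was above every control and replicates 2 and 3 below every control. This gave a log2 fold change of -0.37 (standard error 0.31, 95% interval -1.06 to 0.32, adjusted p = 0.676 by the same edgeR test).

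Nampt (ENSMUSG00000020572, chromosome 12 from 32819545 to 32853349) encodes the rate-limiting enzyme of NAD salvage, which adipocytes also release. The controls were very close together at 405, 394 and 415 CPM, and the knockdown libraries spread around them at 579, 395 and 290 CPM. Its log2 fold change was 0.059 (standard error 0.24, 95% interval -0.47 to 0.59, adjusted p = 0.947 by the same edgeR test), and it became -0.23 without knockdown replicate 1. Among the tested members, the log2 fold change of Nampt was the nearest to 0.

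Apln (ENSMUSG00000037010, chromosome X from 48025146 to 48034853) encodes apelin, a peptide that acts on the receptor APLNR and is induced by insulin in adipocytes. It was at 86.4, 57.1 and 74.3 CPM in the controls and at 119, 42.9 and 16.3 CPM in the knockdown libraries. The 3 knockdown libraries spanned a wider range than any control pair, from above the highest control to below the lowest. With a log2 fold change of -0.29 (standard error 0.55, 95% interval -1.53 to 0.94, adjusted p = 0.875 by the same edgeR test), this gene had the widest interval of the members, and its sign turned (0.16) without knockdown replicate 3 and with library sizes alone (0.010).

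Rarres2 (ENSMUSG00000009281, chromosome 6 from 48569696 to 48572789) encodes the precursor of chemerin, an attractant of immune cells that is cut into its active form outside the cell. Levels of 137, 130 and 108 CPM in the controls stood beside 110, 70.6 and 89.2 CPM in the knockdown libraries. The groups overlapped only through control replicate 3 and knockdown replicate 1. Its log2 fold change was -0.47 (standard error 0.19, 95% interval -0.90 to -0.047), with an unadjusted p of 0.0332 and an adjusted p of 0.349 in the same edgeR fit, so it was not called. Exons of Rarres2 overlap those of Lrrc61 on the opposite strand by 892 bases. Lrrc61 was at 8.88 to 16.0 CPM, and reads of the overlap were not told apart here because the strand setting of the counting is not given in the sources used here.

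**Figure D3:**
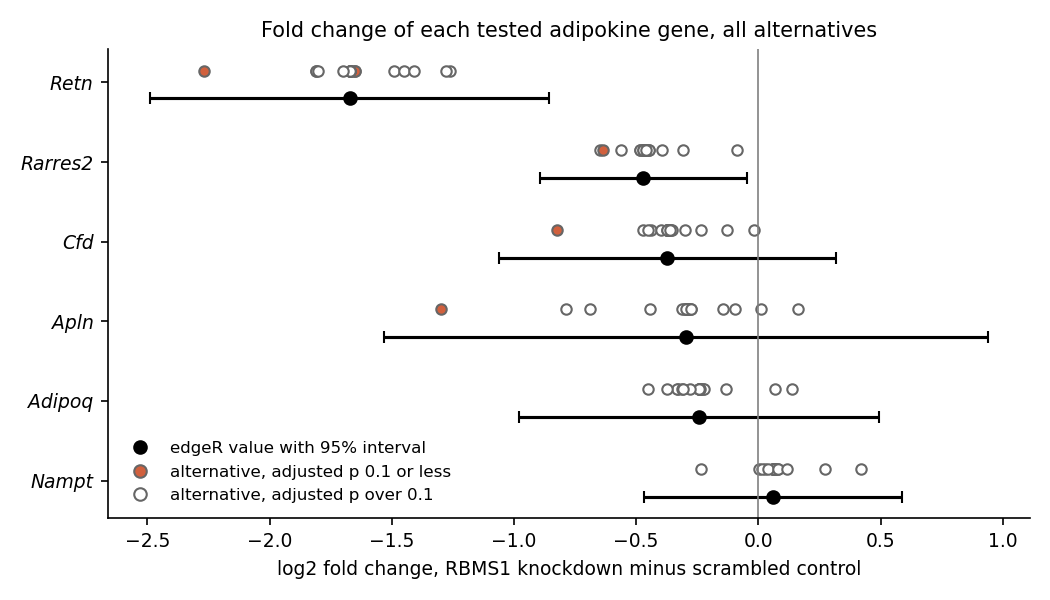
Log2 fold change (RBMS1 knockdown minus scrambled control) of the 6 tested adipokine genes. Black points and bars give the edgeR value with its 95% interval, and small points give the 18 alternatives, filled where the adjusted p was 0.1 or less. Every Retn value lies between -2.27 and -1.26, and the other 5 genes have filled points in at most 1 alternative each.

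The members varied more within the knockdown group than within the control group. On the scale of log2(CPM + 0.5), the SD between knockdown libraries exceeded that between controls in 6 of 6 tested members, as it did in 52.4% of all tested genes. For Apln the SD was 1.42 in the knockdown group and 0.30 in the controls, for Nampt 0.50 and 0.038, and for Cfd 0.65 and 0.15. The median SD over all tested genes was 0.26 and 0.24. Knockdown replicate 1 held the highest value of its group for all 6 genes, and it was also the library with the lowest Rbms1 level and the lowest sum of fibroblast markers. How much these differences contribute to the spread was not tested.

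Without RBMS1 knockdown replicate 1, 4 of the 6 tested members were called lower, in a comparison that called 3.63% of 11724 genes lower. Retn then had a log2 fold change of -2.27 (adjusted p = 0.00106), Apln of -1.30 (adjusted p = 0.0814), Cfd of -0.82 (adjusted p = 0.0474) and Rarres2 of -0.63 (adjusted p = 0.0875), all by edgeR's quasi-likelihood test. Adipoq, at -0.45, and Nampt, at -0.23, were not called (adjusted p = 0.509 and 0.540 by the same edgeR test). The calls of Apln, Cfd and Rarres2 were found in this alternative alone among the 18. They rest on 2 knockdown libraries whose adipocyte marker sums were the lowest of all 6. Knockdown replicate 1 held the highest value of its group for each tested member. Leaving it out therefore lowers the knockdown mean of each, and these calls are no separate support. For every 1000 CPM of the markers outside chromosome 8, Cfd was at 84.2 and 91.0 CPM in knockdown replicates 2 and 3 and at 87.2 to 123 in the controls. Rarres2 was below every control in replicate 2 and within their range of 10.3 to 13.1 in replicate 3, at 11.1, and Apln stood at 6.08 and 2.02 against 4.72 to 8.32. On that scale these 3 genes overlapped between the groups, and Retn, at 7.76 and 6.05 against 19.4 to 25.8, did not.

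Levels of different genes were compared per kilobase of exon, using the merged exons of GENCODE M21 since the effective lengths of the quantification are not used here. In the controls, Adipoq came first at 1671 ± 216 CPM per kb (SD, n = 3) and Cfd next at 1280 ± 131 (SD, n = 3). They were followed by Retn at 159 ± 34.6, Nampt at 80.1 ± 2.11, Rarres2 at 47.0 ± 5.56 and Apln at 23.1 ± 4.68 CPM per kb. Their ranges over the 3 control libraries did not overlap between any neighbours in this order. Adipoq and Cfd together therefore made up most of the adipokine transcripts, with Adipoq at 49.4%, 50.7% and 53.3% and Cfd at 40.8%, 37.9% and 39.0% of the summed level per length.

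By group means, the order of the 6 tested members changed at a single place in the knockdown group. Retn was above Nampt in each control, at 152, 197 and 129 against 80.2, 77.9 and 82.1 CPM per kb, and below it in each knockdown library, at 84.7, 34.6 and 30.9 against 115, 78.2 and 57.4 CPM per kb. Adipoq (1411 ± 564 CPM per kb, SD, n = 3) and Cfd (988 ± 472) stayed first and second in every knockdown library, although their group ranges overlapped. Rarres2 (33.9 ± 7.47 CPM per kb) and Apln (5.18 to 37.8 over the 3 libraries) closed the list of the tested members, and their ranges overlapped with each other and with that of Retn.

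**Figure D4:**
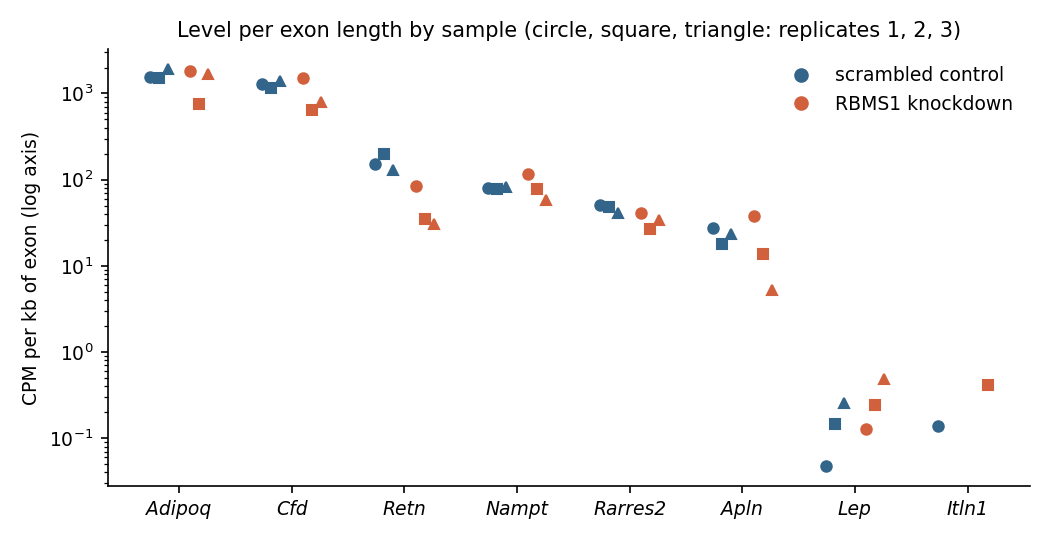
Level per kilobase of exon for 8 adipokine genes by library, on a log axis, with replicates 1, 2 and 3 as circle, square and triangle. Libraries without a count are not drawn, which leaves 2 points for Itln1 and removes Rbp4. Adipoq and Cfd lie near 1000 CPM per kb, and Retn lies above Nampt in the controls and below it in the knockdown libraries.

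The remaining 3 members were near or at 0. Lep (ENSMUSG00000059201, chromosome 6 from 29060220 to 29073877) had 1, 1 and 5 counts in the controls and 3, 7 and 22 counts in the knockdown libraries. That is 0.16, 0.50 and 0.86 CPM against 0.43, 0.82 and 1.61 CPM, values that overlap, and the gene did not pass the filter. With the filter removed its log2 fold change was 1.04, with an adjusted p of 0.746 by edgeR. Itln1 (ENSMUSG00000038209, chromosome 1), known from gut and visceral fat, had 1, 0 and 0 counts in the controls and 0, 4 and 0 in the knockdown libraries. Rbp4 (ENSMUSG00000024990, chromosome 19), the plasma carrier of retinol, had 0 counts in all 6 libraries. A level of 3 counts, the most that a count of 0 allows, equals 0.481, 1.49 and 0.516 CPM in the controls and 0.431, 0.351 and 0.220 CPM in the knockdown libraries, and these limits cover counting error only.

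To place each tested member, the other tested genes were ranked by the root mean square difference of their centred log2(CPM + 0.5) profiles over the 6 libraries. Retn was closest to Rgcc (0.14) and to Hp (0.23), and Rgcc read 8.01, 11.4 and 8.77 CPM in the controls and 5.18, 1.75 and 1.84 CPM in the knockdown libraries. Adipoq was closest to Kctd14 (0.096) and Relb (0.13), Cfd to Abhd1 (0.082) and Mlx (0.083), and Nampt to Alkbh5 (0.039) and Lace1 (0.070). Apln had Selenbp1 (0.14) and Hcar2 (0.22) as its nearest genes, and Hcar2, a receptor of adipocytes for niacin and ketone bodies, read 41.0, 35.7 and 34.1 CPM in the controls and 61.2, 16.1 and 8.37 CPM in the knockdown libraries. Rarres2 was closest to Ndufc1 (0.040) and Rtn4rl2 (0.048). Among the members, Cfd and Rarres2 (0.27) and Adipoq and Cfd (0.29) were the most alike, and Retn and Nampt (0.95) the least. These distances describe 6 libraries and carry no test.

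The genes through which adipokines act or are made were read from 9 lists, which together hold 144 genes of the table, 92 of them tested. In all, 4 were called lower and 1 higher, where 1.22% of all tested genes were called. Over all tested genes, 49.6% were below 0 and 12.4% had an unadjusted edgeR p under 0.05. Among the receptors and binding partners, 0 of 6 tested genes were called by edgeR, DESeq2 or limma-voom, 2 had an unadjusted edgeR p under 0.05, and 2 were below 0 (median log2 fold change 0.23). The adiponectin receptor Adipor1 was at 98.4, 98.3 and 92.7 CPM in the controls and at 135, 110 and 127 CPM in the knockdown libraries, without overlap (log2 fold change 0.36, adjusted p = 0.346 by edgeR). Adipor2 had a log2 fold change of 0.49, the resistin-binding protein gene Cap1 of 0.15 and the insulin receptor gene Insr of -0.32 (adjusted p = 0.352, 0.746 and 0.678 by the same edgeR test). Without knockdown replicate 1, Insr was called lower (-0.72, adjusted p = 0.0411 by edgeR), as 1 of 6 receptors. Lepr, Aplnr and Cmklr1, which encode the receptors of leptin, apelin and chemerin, stayed at or below 1.40 CPM in every library and were not tested. Resistin and intelectin relatives were nearly silent, since Retnla had at most 0.16 CPM and Retnlb and Retnlg had 0 counts. The C1q/TNF-related proteins, which share adiponectin's domain structure, had 3 tested genes, C1qtnf6, C1qtnf5 and C1qtnf1, with log2 fold changes of 0.25, 0.36 and 0.45. Of these, 0 were called by edgeR, DESeq2 or limma-voom and 0 had an unadjusted p under 0.05.

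Of the proteins that fold and release adiponectin, 1 of 13 tested genes was called, beside 1.22% of all tested genes. Gstk1, which encodes a disulfide-bond protein also known as DsbA-L that promotes adiponectin assembly, fell and averaged 4.64 ± 1.72 CPM (SD, n = 3) in the knockdown group against 20.3 ± 2.51 in the controls. Its libraries read 18.9, 18.9 and 23.2 CPM in the controls and 6.61, 3.86 and 3.45 CPM in the knockdown group (log2 fold change -2.15, standard error 0.29, adjusted p = 0.0229 by edgeR). The list as a whole was not shifted down, with 5 of 13 below 0 and a median of 0.11. Ero1l, the oxidase of the same pathway, had 1102, 1004 and 1199 CPM in the controls and 2526, 815 and 151 CPM in the knockdown libraries, where replicate 1 was the highest and replicate 3 the lowest. P4hb, Hspa5 and Pdia4, chaperones of the endoplasmic reticulum, had log2 fold changes of 0.14, -0.059 and -0.064 and were not called. With each library left out in turn, Gstk1 was called in 2 of 6 cases (adjusted p from 0.00335 to 0.118 by edgeR), those being without knockdown replicates 1 and 3.

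The NAD list around Nampt had 1 call in 9 tested genes, beside 1.22% over all genes, with a median of -0.025. Nnmt, which methylates nicotinamide and so removes the substrate of NAMPT, read 29.2, 23.8 and 26.0 CPM in the controls and 13.4, 10.2 and 11.9 CPM in the knockdown libraries (log2 fold change -1.16, adjusted p = 0.0498 by edgeR), and it was called in 2 of the 6 cases with a library left out, without knockdown replicates 1 and 3 (adjusted p from 0.0186 to 0.195 over the 6). Parp1, Sirt2 and Nmnat1 had log2 fold changes of -0.012, -0.025 and -0.35. Around Cfd, 0 of 6 tested genes of the alternative complement pathway were called by edgeR and 0 had an unadjusted p under 0.05, while DESeq2, which tests more genes, called 3 of the list lower and 2.12% of all its genes. Its central component C3 was at 6383, 6979 and 8304 CPM in the controls and at 5146, 4127 and 4264 CPM in the knockdown libraries, without overlap. The log2 fold change of C3 was -0.68 with an adjusted p of 0.420 by edgeR and 0.0149 by DESeq2. Of 9 tested retinoid genes, which belong to the pathway of the absent Rbp4, 0 were called by edgeR, DESeq2 or limma-voom, 3 had an unadjusted edgeR p under 0.05 (12.4% over all genes) and 2 were below 0. Dgat1 and Retsat were those 2, at -0.60 and -0.39 (adjusted p = 0.267 and 0.358 by edgeR), and Rxra and Rara stood at 0.069 and 0.066. Without knockdown replicate 1, Dgat1 was called lower (-0.82, adjusted p = 0.032 by edgeR) and Rdh10 higher (0.97, adjusted p = 0.0990).

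**Figure D5:**
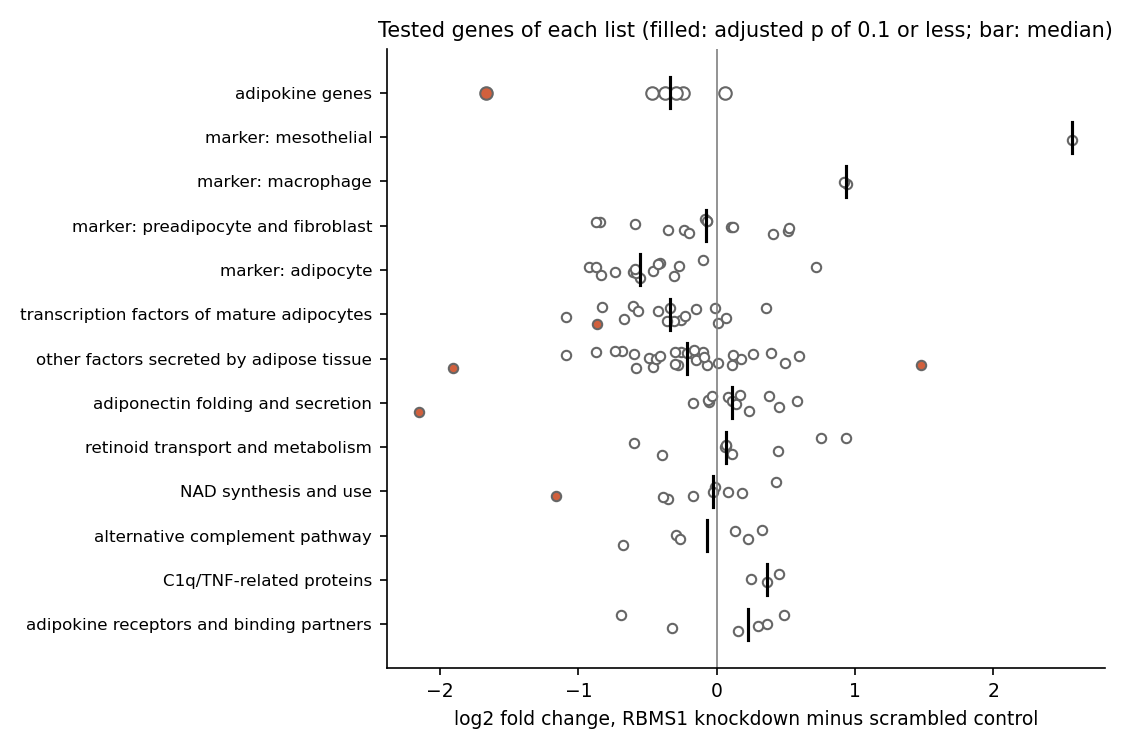
Log2 fold change (RBMS1 knockdown minus scrambled control) of every tested gene in each list, the marker lists and the adipokine genes. Each point is a gene, filled where edgeR's adjusted p was 0.1 or less, and bars are list medians. The filled points are Retn among the adipokine genes and Nnmt, Gstk1, Pltp, Hp and Zfp423 among the lists.

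Among 31 tested genes of other factors secreted by adipose tissue, 22 were below 0 (median -0.22), 1 was called lower and 1 higher, beside 49.6% below 0 and 1.22% called over all tested genes. Hp, which encodes the hemoglobin-binding protein haptoglobin and lies on chromosome 8 like Retn, read 500, 952 and 463 CPM in the controls and 266, 145 and 98.1 CPM in the knockdown libraries (log2 fold change -1.91, adjusted p = 0.0842 by edgeR). Pltp, a phospholipid transfer protein gene, was the gene called higher, with 29.7, 54.6 and 29.2 CPM in the controls and 132, 115 and 67.5 CPM in the knockdown libraries (log2 fold change 1.48, adjusted p = 0.0842 by edgeR). The most abundant genes of the list, Lpl, Fabp4, Sparc and Psap, had log2 fold changes of -0.87, -0.46, -0.15 and 0.18 and were not called by edgeR. DESeq2 called 2 genes of the list lower, Lpl among them (adjusted p = 0.0323), and 1 higher, beside 3.20% of all its genes. Of 17 tested transcription factors of mature adipocytes, 14 were below 0 (median -0.34), 1 was called by edgeR and 2 by DESeq2 (3.20% of all genes in DESeq2), and 7 had an unadjusted edgeR p under 0.05, beside 12.4% of all tested genes. The gene called by edgeR, Zfp423, is in this list although it is an early regulator of the preadipocyte state, and it also lies on chromosome 8. It had 55.5, 67.0 and 46.1 CPM in the controls and 30.2, 27.5 and 34.7 CPM in the knockdown libraries (log2 fold change -0.86, adjusted p = 0.0957 by edgeR). Pparg, Cebpa and Cebpb, the factors best known to drive adipokine genes, had log2 fold changes of -0.31, -0.61 and -0.34 with adjusted p of 0.554, 0.319 and 0.630 by the same edgeR test. With each library left out in turn, Pltp was called in 2 of 6 cases (without knockdown replicates 1 and 3), and Hp and Zfp423 in 1 of 6, without knockdown replicate 1 (adjusted p from 0.0254 to 0.315, from 0.00673 to 0.300 and from 0.0634 to 0.341 by edgeR). With chromosome medians removed, Hp was at -1.51 (adjusted p = 0.174), Zfp423 at -0.47 (adjusted p = 0.407) and Pltp at 1.46 (adjusted p = 0.125) by the same edgeR test. None of these was then called. Gstk1, at -2.32 (adjusted p = 0.017), and Nnmt, at -1.19 (adjusted p = 0.0502), stayed called in that fit. Without knockdown replicate 1, where 5.94% of all genes were called, 3 secreted factors were called lower and 3 higher, and 5 of the 17 transcription factors were called lower, Cebpa among them (-0.83, adjusted p = 0.0609 by edgeR).

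Of the 15 adipocyte markers, 14 had a log2 fold change below 0 (median -0.56), where 49.6% of all tested genes were below 0. By edgeR 0 of them were called and 7 had an unadjusted p under 0.05, as did 12.4% of all tested genes, and DESeq2 called 3 lower and 1 higher, beside 3.20% of all its genes called. Without RBMS1 knockdown replicate 1, edgeR called 9 of the 15 lower and 0 higher, beside 3.63% of all genes called lower. Among those 9 were Dgat2 (log2 fold change -1.96, adjusted p = 0.00241) and Acsl1 (-1.22, adjusted p = 0.0199), which act in triglyceride synthesis, and Slc2a4, the insulin-responsive glucose transporter gene (-0.70, adjusted p = 0.0411), by the same edgeR test. The 4 adipokine genes called in that alternative were thus called together with most of the adipocyte markers. Knockdown replicate 1 had stood apart through its higher sum of these same markers. Leaving it out therefore favours lower calls of them, and these calls are no separate support for a change. Cd36, a fatty acid transporter gene, was the marker with a log2 fold change above 0 over all libraries, at 0.72 (adjusted p = 0.183 by edgeR). Lpl and Acsl1, on chromosome 8, held more than the other 13 markers together in the controls and in knockdown replicate 1. The sum of those 13 was 10388, 12084 and 10486 CPM in the controls and 10597, 7051 and 8054 CPM in the knockdown libraries. The part of this marker difference in the levels of Cfd, Adipoq and Rarres2 was not tested.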

How the data were processed

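RNA from 3 scrambled control and 3 RBMS1 knockdown cultures of differentiated 3T3-L1 cells was depleted of ribosomal RNA and sequenced from stranded libraries. Per the submitters' processing notes and methods, reads were trimmed with Trim Galore 0.6.7, aligned to GRCm38 with STAR 2.7.10a and quantified with Salmon 1.9.0. The authors deposited estimated counts per gene without normalization. The annotation release and strand setting are not given in the sources used here. The study calls the cultures biological replicates.

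Estimated counts were rounded, filtered with filterByExpr, scaled with TMM factors and tested on the condition alone with edgeR 4.0.16 in R 4.3.3 (glmQLFit with its newer, non-legacy estimates, a setting chosen because it matched counts of calls already known for these data, and glmQLFTest), with Benjamini-Hochberg adjustment over 11440 genes. The threshold for a call was an adjusted p of 0.1, which the study's Results use for its RNA comparison, while its methods and a caption give stricter limits. Standard errors are the log2 fold change divided by the square root of the F statistic. The method was tested on simulated data. The 18 alternatives comprised DESeq2 1.42.0, limma-voom (limma 3.58.1), other scaling, filters and rounding, a replicate block, genes derived from ribosomal RNA removed, chromosome medians removed (chromosomes with at least 50 tested genes), each library left out, and, chosen after seeing the data, edgeR's earlier and robust estimates. Positions and exon lengths came from GENCODE M21 (GRCm38) and promoters from RefSeq (GRCm38.p6). Genes named are the 9 members, Rbms1, called or most abundant list genes and the 2 genes nearest to each tested member. Camsap3, Cd55, Cd36, Msln, Dgat2, Slc2a4, Rdh10, Lrrc61, Lepr, Aplnr, Cmklr1, the resistin relatives and the markers without counts fall outside this rule. They were named after their values were seen. Acsl1, named as a marker on chromosome 8, falls outside the rule as well. The members and lists were chosen with earlier results of these data known.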

Additional observations from a re-analysis of the deposited data

How the results depend on the processing

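Of 216 single-gene values under 18 alternatives, 160 kept their direction and side of the threshold and 5 reversed. The 160 include values of genes that were not called to begin with. Among the called genes, the call was lost in 11 of 18 alternatives for Retn and for Zfp423. It was lost in 8 for Hp, 7 for Pltp, 6 for Nnmt and 4 for Gstk1. Library sizes alone turned Adipoq to 0.14 and Apln to 0.010. Leaving out single libraries gave log2 fold changes from -0.45 to 0.068 for Adipoq, from -0.23 to 0.27 for Nampt and from -1.30 to 0.16 for Apln. Retn kept its sign in all 18 and its call in 7. The number of adipokine genes called fell from 1 to 0 with DESeq2's size factors, library sizes alone, the replicate block, chromosome medians removed, and edgeR's earlier and robust estimates, and ran from 0 to 4 with a library left out. Over all genes, 140 were called, against 430 with DESeq2, 268 without the filter, 39 with the replicate block, 73 with chromosome medians removed and 12 to 696 with a library left out. Of the list genes 5 were called, against 10 with DESeq2, 3 with library sizes alone, 1 with the replicate block, 2 with chromosome medians removed, 3 with robust estimates and 0 to 18 with a library left out. Library sizes alone called 42 lower and 84 higher genes, against 104 and 36. Same-numbered libraries deviated with correlations of -0.144, 0.078 and -0.028, and the other pairings ran from -0.173 to 0.206. Deviations from means of 3 libraries cannot show whether the numbers pair the samples, and the labels do not say. The cause of the shifts between alternatives was not tested. Scrambled control replicate 2, the shallowest library, limits low genes such as Lep.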

Other observations

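Cd55, which encodes a membrane inhibitor of the C3 convertase of the complement pathway in which adipsin acts, was low and did not pass edgeR's filter, yet its groups did not overlap. It had 19, 9 and 6 counts in the controls and 0, 0 and 1 in the knockdown libraries, with an adjusted p of 0.00302 by DESeq2. The gene was named after its values were seen.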
